A study of Mus musculus with 6 samples.

Results

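Il33, the gene of the alarmin IL-33, was measured together with 6 genes of type 2 immunity in the back skin of mice with chronic graft-versus-host disease (GVHD). The 6 are the cytokine genes Il4, Il5 and Il13, the receptor gene Il13ra2 and the transcription factor genes Stat6 and Gata3. These 7 genes were taken by name from the 84 genes of interest on a custom qRT-PCR plate, through the well that the study's plate map gives each of them. All 6 animals were female Balb/c mice, aged 10 weeks when they were irradiated at 5.8 Gy. From C57BL/6J donors they then received 5000000 bone marrow cells, from which T and B cells had been removed, and 1000000 splenocytes. The 3 GVHD controls received no further cells, and the study names PBS as the injection of its GVHD controls. The 3 CpG-proB recipients also received 750000 CpG-proBs, B-cell progenitors of bone marrow activated with the TLR agonist CpG. Skin of 2 cm2 was taken at day+70 after irradiation, and animals are numbered as deposited, controls 1 to 3 and recipients 4 to 6. Skin of mice without GVHD was not analysed here, so all values compare one diseased group with another.

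IL-33 is stored in the nucleus of epithelial, endothelial and stromal cells and is released when they are damaged. It binds the receptor ST2 on mast cells, innate lymphoid cells, Th2 cells and tissue regulatory T cells, and is known to drive IL-5 and IL-13 in innate lymphoid and Th2 cells and to expand the regulatory T cells. IL-4 and IL-13 signal through receptor chains that activate STAT6, and STAT6 induces GATA3, the factor that defines Th2 cells. IL-13Rα2 binds IL-13 with high affinity and is best known as a decoy receptor. In skin this circuit is known for its part in allergic inflammation and in fibrosis.

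The promoters of Il33 and Il4 are shown because, of the 9 RefSeq promoters listed for the 7 genes (250 bases before to 50 after a start of transcription, GRCm38.p6), these were the 2 that held TTC and GAA with any 4 bases between them, the spaced palindrome that STAT6 is known to bind. The motif reads the same on both strands and was present in 6.95% of all 32851 promoters listed. It is in capitals below, in chr19:29924863-29925162 (plus strand) for Il33 and in chr11:53618616-53618915 (minus strand) for Il4.
Il33: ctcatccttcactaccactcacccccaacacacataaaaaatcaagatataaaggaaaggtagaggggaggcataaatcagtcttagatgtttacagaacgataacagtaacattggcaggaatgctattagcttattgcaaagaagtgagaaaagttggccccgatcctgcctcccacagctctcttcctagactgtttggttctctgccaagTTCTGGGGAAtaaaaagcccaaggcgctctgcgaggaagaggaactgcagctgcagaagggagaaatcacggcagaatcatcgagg
Il4: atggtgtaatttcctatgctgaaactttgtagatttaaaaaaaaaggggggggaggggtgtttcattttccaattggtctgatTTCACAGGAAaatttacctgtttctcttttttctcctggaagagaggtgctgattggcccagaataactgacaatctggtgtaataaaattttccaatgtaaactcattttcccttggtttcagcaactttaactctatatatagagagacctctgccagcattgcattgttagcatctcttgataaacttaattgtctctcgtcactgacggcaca
In Il33 the motif began 36 bases before the start, and in Il4 it began 167 bases before it. Il33 and Il4 each have 2 starts in the table, and the other start of each lacked the motif, as did the promoters of Il5, Il13, Il13ra2, Stat6 and Gata3. A match of letters is not a site of binding, and the plate gave 1 value per gene and none per start.

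The measured value was the threshold cycle (Ct) of a well, where its SYBR Green signal rises past a set level, so that a lower Ct means more template. All 42 wells of the 7 genes gave a Ct. By the plate's primer positions, the Il33 product of 65 bp lay at the junction of exons 6 and 7 of this chromosome 19 gene. Il4, Il5 and Il13 are neighbours on chromosome 11 and had products of 72, 153 and 90 bp. Il13ra2 on chromosome X, Stat6 on chromosome 10 and Gata3 on chromosome 2 had products of 121, 144 and 141 bp. The amplification efficiency of the primers is not known here, so levels are compared between animals and not between genes.

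The genes differed in how far they stood from the negative-control wells, whose Ct ranged from 28.21 to 30.13 over the 6 animals. What these wells held is not stated in the sources used here. Gata3 crossed the threshold 6.00 to 7.89 cycles before the lower negative-control well of the same animal, Stat6 4.37 to 5.90 cycles before it, and Il33 1.89 to 5.09 cycles before it. Il4 lay close to these wells, from 0.07 cycles before them in recipient 5 to 2.06 cycles before them in control 3. Il5, Il13 and Il13ra2 had a Ct at or past the lower negative-control well of the same animal in 6 of 6 animals. For these 3 genes the signal could not be told from that of the negative-control wells, and their values below are given under that limit.

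**Figure D1:**
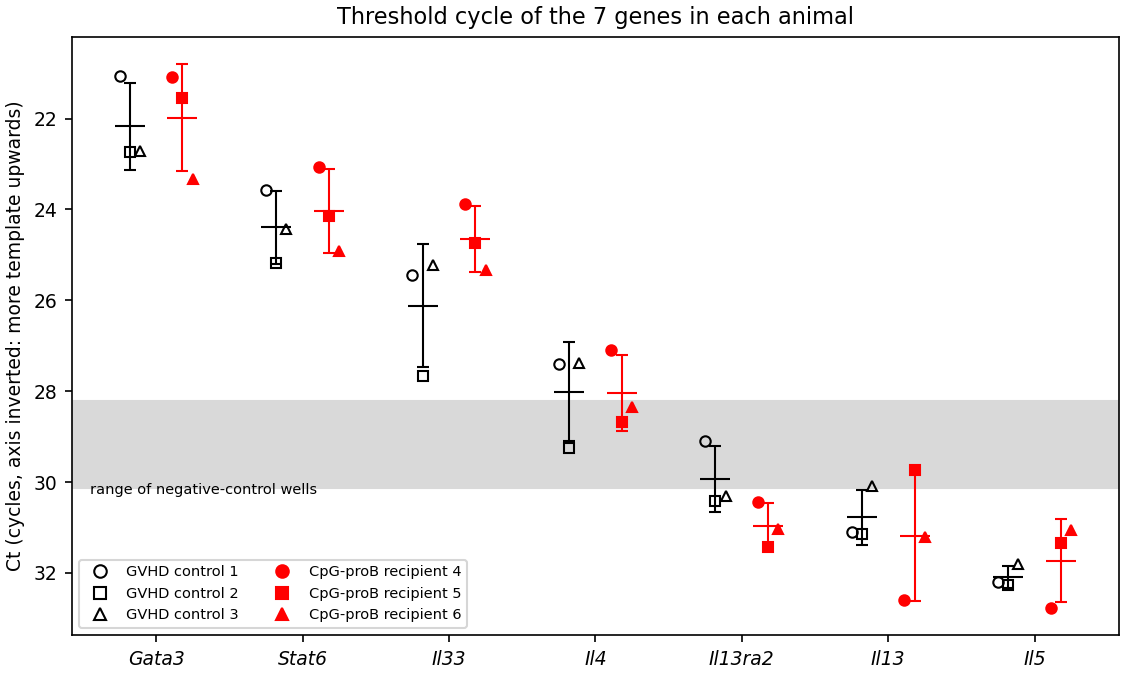
Ct of the 7 genes in each animal, on an inverted axis in cycles. Open black symbols are GVHD controls, filled red symbols are CpG-proB recipients, the bars give mean and SD of 3 animals, and the grey band spans the negative-control wells from 28.21 to 30.13. Gata3, Stat6 and Il33 lie above the band, Il4 around its upper edge, and Il5, Il13 and Il13ra2 within or below it.

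To compare animals, the level of a gene was computed as −ΔCt, the average Ct of 6 house-keeping genes (Ppia, Tbp, B2m, Rplp0, Tfrc and Gusb) minus the gene's own Ct. On this log2 scale 1 unit stands for a factor of 2 at full efficiency. The Ct averaged over these 6 was 21.34, 22.94 and 22.20 in controls 1 to 3 and 21.66, 22.71 and 22.98 in recipients 4 to 6. The groups were compared by limma over the 82 genes of interest that had 2 or more Ct values per group. The study's threshold was used, a change of 1.4-fold or more in either direction with p no higher than 0.05 before adjustment. The p-values measure the spread between these 6 animals, and 0.1 is the smallest two-sided p that an exact permutation test can reach with 3 animals against 3.

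Il33 was the 1 gene of the 7 that passed, and it was higher in CpG-proB recipients. Of all 82 genes 14 passed (17.1%), and 10 of them were higher in recipients (12.2%), so that 1 of 7 is a share close to that of the plate. After adjustment, limma gave 2 genes of the plate a p of 0.05 or less (2.44%), and 0 of the 7, among which Il33 was the 1 gene with such a p before adjustment. The median log2 fold change was 0.48 over the 7 genes and 0.11 over all 82. The groups did not overlap for Il33 and Stat6, 2 of 7 genes, against 17 of 82 (20.7%). In whole skin, fewer cells that make an RNA and less of it per cell cannot be told apart.

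Il33, the alarmin, had a Ct of 25.45, 27.66 and 25.23 in controls and of 23.88, 24.73 and 25.33 in recipients. Its level was −4.11, −4.72 and −3.03 in controls and −2.22, −2.02 and −2.35 in recipients. On the Ct scale control 3 overlapped with the recipients, while on the scale of levels every recipient was above every control. The mean level was −3.96 ± 0.857 in the control group and −2.20 ± 0.164 in the recipient group (SD, n = 3 each), and control 2 was the lowest animal. The log2 fold change was 1.76 (standard error 0.54, 95% interval 0.63 to 2.89), which is 3.39-fold more Il33 RNA and the 4th largest rise of the 82 genes. The adjusted p of limma was 0.061, with a range from 0.00251 to 0.474 over 14 alternative settings (other references, variance models, filters or animals), and the exact permutation p was 0.1. The recipients differed from each other by less than the controls did, with levels within 0.33 of each other.

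The size of the Il33 rise depended on the reference. It was 2.05 with all 8 house-keeping genes of the plate (adjusted p of limma 0.0413), 2.51 with Ppia, Tbp and Actb, and 1.35 against each animal's median Ct over the genes tested, and Il33 passed the threshold with each of them. Without a reference it was 1.47 and did not pass (exact permutation p = 0.2). In a check added after the data were seen, each of the 8 house-keeping genes served alone. Il33 was then higher in recipients with 8 of 8 references and passed with 6, from 0.71 with B2m, which did not pass, to 3.09 with Actb. With Rplp0 alone the value was 1.63 and did not pass. A single reference moved the whole plate, with a median log2 fold change over the 82 genes of −0.94 with B2m and 1.44 with Actb. With Rplp0 0 of the 7 genes passed and 4.88% of the plate, and with Actb 5 of the 7 and 46.3% of the plate.

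**Figure D2:**
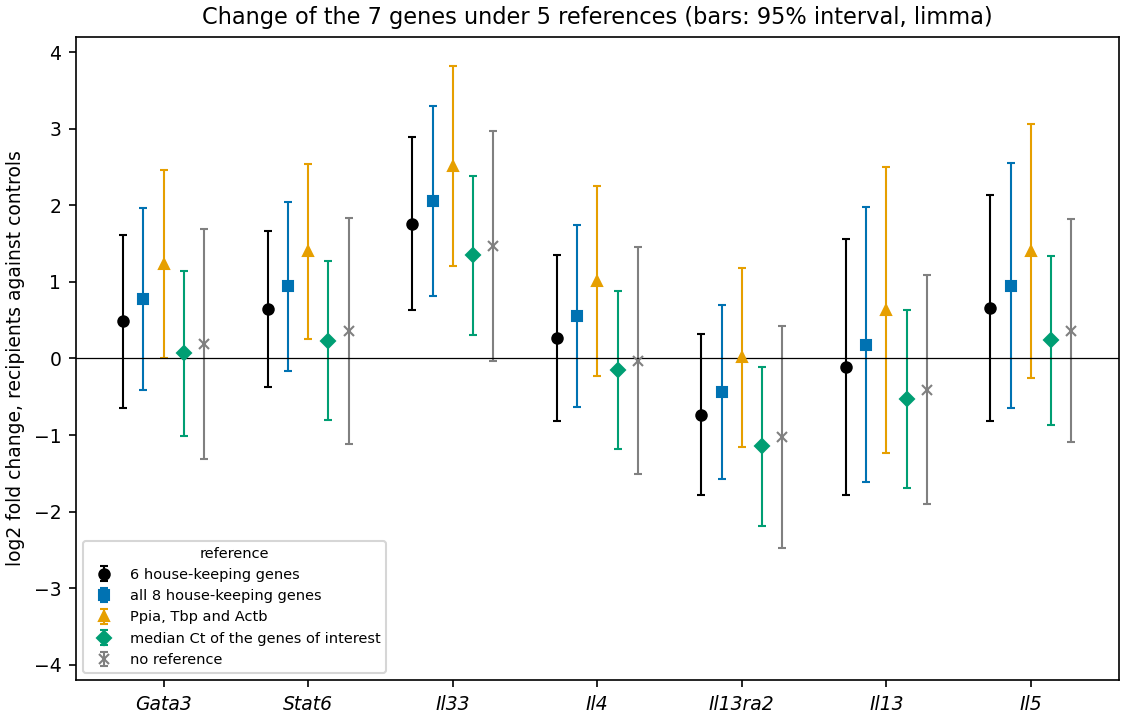
The log2 fold change of recipients against controls for the 7 genes under 5 references (symbols), with the 95% interval of limma as bars. Il33 lies between 1.35 and 2.51 and above 0 under each of the 5, Il4, Il13 and Il13ra2 lie on either side of 0, and the interval of Il33 includes 0 without a reference.

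The type 2 cytokine genes did not pass the threshold, and their median log2 fold change was 0.26. Il4, which drives Th2 differentiation and class switching to IgE, had a level of −6.05, −6.32 and −5.17 in controls and −5.44, −5.96 and −5.36 in recipients. The values overlapped, with the highest level in control 3. Its log2 fold change was 0.26 (95% interval −0.82 to 1.35, exact permutation p = 0.6). Omitting control 2 brought it to 0.026 and omitting control 3 to 0.60, and it did not pass whichever animal was omitted. The sign was negative against the median Ct (−0.15) and when no reference was used (−0.03).

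Il5, the growth and survival factor of eosinophils, had a level of −10.86, −9.32 and −9.60 in controls and −11.11, −8.64 and −8.08 in recipients. Recipients 5 and 6 were above every control and recipient 4 was below every control. Its log2 fold change was 0.65 (95% interval −0.82 to 2.13, exact permutation p = 0.6). It depended on single animals. Without recipient 4 it was 1.57 and passed the threshold, while without recipient 6 it was 0.054 and without control 1 it was 0.19. The Ct of Il5 was between 31.06 and 32.77, past the negative-control wells in every animal.

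Il13, which acts on epithelium and fibroblasts, had a level of −9.76, −8.20 and −7.88 in controls and −10.94, −7.03 and −8.22 in recipients. Recipient 4 was the lowest and recipient 5 the highest of the 6 animals, so the recipients enclosed all controls. The log2 fold change was −0.11 (95% interval −1.79 to 1.56, exact permutation p = 0.8). Its sign turned with all 8 house-keeping genes (0.18) and without recipient 4 (0.99). Control 1 and recipient 4 had the lowest level of both Il5 and Il13, and these 2 animals also had the lowest Ct averaged over the 6 house-keeping genes. The part of the reference in these Il5 and Il13 levels was not tested.

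Il13ra2, the decoy receptor, had a level of −7.76, −7.47 and −8.10 in controls and −8.78, −8.71 and −8.05 in recipients. Recipients 4 and 5 were below every control and recipient 6 lay within them. The log2 fold change was −0.73 (95% interval −1.78 to 0.32, exact permutation p = 0.2) and did not pass. On the Ct scale the recipients were 1.03 cycles later than the controls, with no overlap (exact permutation p = 0.1). Against the median Ct the change was −1.15 and passed, and against Ppia, Tbp and Actb it was 0.017. It also passed with B2m alone (−1.79), where Il33 did not, and with Gusb alone (−1.11), references under which 29.3% and 24.4% of the plate passed.

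Among the transcription factors, Stat6 had a level of −2.23, −2.24 and −2.23 in controls and −1.41, −1.43 and −1.93 in recipients. The controls were nearly equal on this scale, with an SD of 0.0063 (n = 3), and every recipient was above them. With all 8 house-keeping genes the SD of the controls was 0.158. The pooled SD of both groups was 0.207 for Stat6, against a median of 0.625 over the 82 genes. The log2 fold change of 0.65 (95% interval −0.37 to 1.67, exact permutation p = 0.1) did not pass in limma, which moves the variance of each gene towards that of all genes. It passed when each gene kept its own variance, where its adjusted p by limma was 0.228 and 18.3% of the plate passed. With 1 house-keeping gene at a time Stat6 was higher in recipients with 7 of 8 references and passed with 3. With B2m alone it was at −0.41, above the plate's median of −0.94 under that reference.

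Gata3 had the lowest Ct of the 7 genes, from 21.06 to 23.32. Which cells of the skin gave this RNA was not measured, so the Gata3 level is not a measure of Th2 cells. The level of Gata3 was 0.28, 0.20 and −0.51 in controls and 0.58, 1.17 and −0.34 in recipients, so recipient 6 lay within the controls and the other 2 recipients above them. Recipients exceeded controls by 0.48 on the log2 scale (95% interval −0.65 to 1.61, exact permutation p = 0.4). The difference was 0.13 without recipient 5, 0.23 without control 3 and 0.89 without recipient 6, and did not pass in any of these. With Ppia, Tbp and Actb as the reference it was 1.23 and passed, as did Stat6. That reference raised the median of all genes to 0.86.

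**Figure D3:**
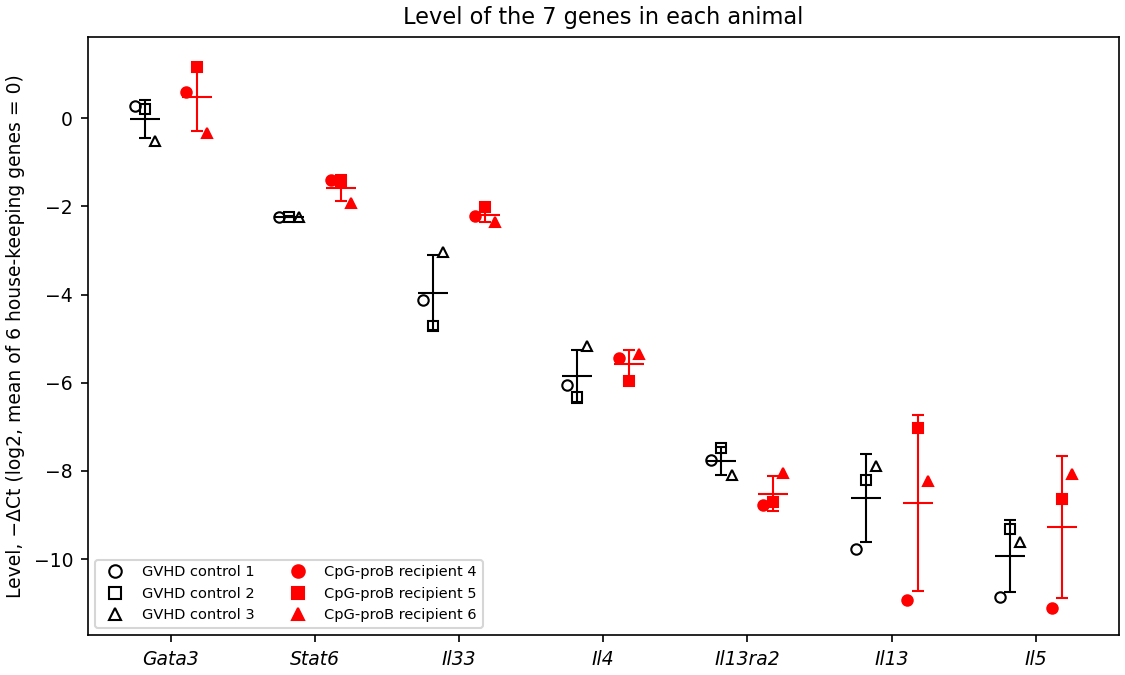
Level of the 7 genes in each animal as −ΔCt, in log2 units against the mean of 6 house-keeping genes. Open black symbols are GVHD controls, filled red symbols are CpG-proB recipients, and bars give mean and SD of 3 animals. Il33 and Stat6 are the genes in which every recipient lies above every control, and recipient 4 is the lowest animal for Il5 and for Il13.

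Whether the type 2 genes changed as Il33 did was compared within each animal, as the Ct of the gene minus that of Il33. This gap needs no house-keeping gene. For Il4 it was 1.94, 1.60 and 2.14 cycles in controls and 3.22, 3.94 and 3.01 cycles in recipients, so Il4 lay further behind Il33 in every recipient than in any control. The largest of these gaps was that of recipient 5, where Il4 lay 0.07 cycles before the lower negative-control well. For Il13ra2 the gap was 3.65, 2.75 and 5.07 cycles in controls and 6.56, 6.69 and 5.70 in recipients, again without overlap. The change relative to Il33, on the log2 scale, was −1.50 for Il4 and −2.49 for Il13ra2, each with an exact permutation p of 0.1.

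The other 4 genes overlapped. The Il13 gap was 5.65, 3.48 and 4.85 cycles in controls and 8.72, 5.01 and 5.87 cycles in recipients, and the Il5 gap was 6.75, 4.60 and 6.57 against 8.89, 6.62 and 5.73. Relative to Il33 the change was −1.87 for Il13 (exact permutation p = 0.2) and −1.11 for Il5 (exact permutation p = 0.5). Stat6 crossed before Il33, by 1.88, 2.48 and 0.80 cycles in controls and by 0.81, 0.59 and 0.42 cycles in recipients. Gata3 crossed before it by 4.39, 4.92 and 2.52 cycles in controls and by 2.80, 3.19 and 2.01 in recipients. The change relative to Il33 was −1.11 for Stat6 (exact permutation p = 0.2) and −1.28 for Gata3 (exact permutation p = 0.3). In both, control 3 was the control whose gap lay among those of the recipients.

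The change relative to Il33 was negative for all 6 genes, as it was for 78 of the 81 genes of the plate. In limma over 81 genes, Il4, Il13 and Il13ra2 passed the threshold, with adjusted p of 0.0412, 0.0134 and 0.00116. A fall relative to Il33 passed for 54 of the 81 genes (66.7%), so 3 of 6 is no larger a share than on the whole plate. The groups did not overlap for 52 of 81 genes (64.2%), and for 2 of these 6. For Il13, Il13ra2 and Il5, whose Ct lay at or past the negative-control wells, the gap measures Il33 against a signal that could not be told from background, and it does not show how these genes changed. Every gap contains the spread of Il33 itself, and limma gave all 81 gaps 1 variance, with a standard error of 0.66. That variance was estimated as if the gaps were independent, although all of them contain the same Il33 values. The limma p-values of the gaps may therefore be too small. When each gene kept its own variance, Il4 and Il13ra2 passed before adjustment and Il13 did not. The adjusted p by limma was then 0.0564 for Il4 and 0.0823 for Il13ra2. The share of the plate that passed in that fit is not given here. Adjusting the 6 exact permutation p-values for each other left none under 0.3.

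The order of the animals within a group was set beside that of Il33. Among controls Il33 was highest in control 3, then in control 1 and control 2. Il4 had this order, Stat6 had it too but over a range of 0.0117, and Il13ra2 had the reverse. Among recipients Il33 was highest in recipient 5, then in recipient 4 and recipient 6. Gata3 had this order and Il4 had the reverse. These orders depended on the reference. With all 8 house-keeping genes, a check added after the data were seen, Il33 in recipients 4 and 6 changed places. Il4 then shared its order among controls and Il13 among recipients, and Stat6 and Gata3 in neither group. With either reference no gene had the order of Il33 in both groups. As Il33 separates the groups, a correlation over the 6 animals would mostly restate that difference, and 3 animals in a group are too few for one.

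**Figure D4:**
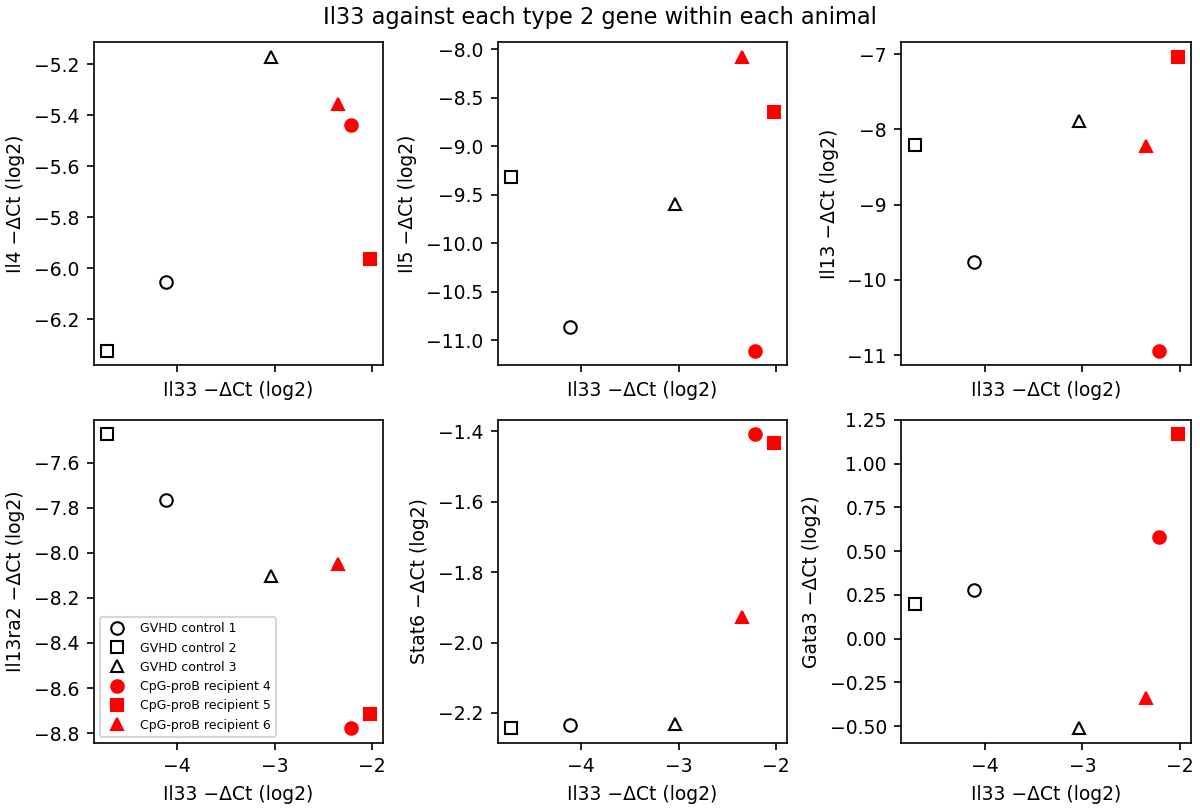
Level of each of the 6 type 2 genes (vertical, −ΔCt in log2 units) against the level of Il33 (horizontal) in the same animal, with 1 panel per gene. Open black symbols are GVHD controls and filled red symbols are CpG-proB recipients. The recipients lie to the right of the controls in every panel, while on the vertical axis Stat6 is the 1 gene in which they are separate.

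By the smallest root mean square difference of the centred profiles over 6 animals, the genes most like Il33 among the other 81 were Thbs2 (0.290), Pdgfb (0.390), Egf (0.462), Csf1r (0.547) and Il12rb2 (0.581), in log2 units. The median over the 81 genes was 1.03. As Il33 separates the groups, this likeness mostly restates the group difference, and all 5 genes passed the threshold with a higher level in recipients. They encode a matrix glycoprotein, 2 growth factors, the receptor of macrophage colony-stimulating factor and a chain of the IL-12 receptor. Among the type 2 genes Stat6 came 16th (0.751), Il4 21st (0.815), Gata3 39th (1.03), Il5 57th (1.29), Il13ra2 66th (1.45) and Il13 77th (1.59).

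Of 6 further genes of the plate tied to IL-33 or type 2 immunity, 5 were tested, and 1 passed, at a lower level in recipients, a share near the 17.1% of the whole plate. This was Fcer2a, the low-affinity IgE receptor CD23 of B cells, with a log2 fold change of −1.72 (adjusted p of limma 0.183). Its level was −8.87, −8.22 and −6.98 in controls and −11.17, −9.76 and −8.30 in recipients. The groups overlapped (exact permutation p = 0.2), and its Ct lay at or past the own negative-control wells in 5 of 6 animals. Ccl11, the eosinophil chemokine eotaxin, had a log2 fold change of 0.50 with a standard error of 0.65. For the IL-1 family cytokines Il1a and Il1b it was 0.20 and −0.04. Kit, the receptor of mast cells, gave a Ct in 3 animals and was not tested.

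The makeup of the skin pieces was read from the few markers on the plate, which holds no keratin gene for the epidermis. The summed level on a linear scale of the fibroblast markers Col1a2 and Col3a1 was 0.607 to 0.766 in controls and 0.336 to 0.840 in recipients. That of the macrophage markers Adgre1, Cd68 and Csf1r was 0.103 to 0.225 in controls and 0.133 to 0.186 in recipients. As the primer efficiencies are not known, the weight of each gene in a sum is not known either. Both ranges overlapped, but the markers in a sum did not move alike. Col3a1 passed the threshold, with a log2 fold change of −1.45 and no overlap between groups (exact permutation p = 0.1), while Col1a2 was at 0.16. Csf1r passed at 1.30, also without overlap (exact permutation p = 0.1), while Adgre1 was at −0.60 and Cd68 at −0.56. The part of cell composition in the Il33 difference was not tested.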

How the data were processed

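Ct values were deposited by the authors without normalization, 1 per well and animal, from 96 wells (84 genes of interest, 8 house-keeping genes and 4 controls). The authors made cDNA with random primers and amplified it with SYBR Green. Technical repeats and the calling of the Ct are not given in the sources used here. Samples were grouped by their labels, and wells were named by the study's plate map. A deposited table of the authors' fold changes (1 ΔΔCt and 1 fold change per gene) was not read here.

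The methods normalize to 6 house-keeping genes without naming them. The 6 used here were taken over from an earlier analysis, which had matched them to that table of fold changes, so the choice of reference goes back to it. limma 3.58.1 in R 4.3.3 fitted −ΔCt (two-sided, moderated variances) for the 82 genes that had 2 or more Ct values per group, which left out Kit and Mmp1a. Adjusted p-values are Benjamini-Hochberg values over all genes tested. The gap to Il33 was fitted in the same way over 81 genes. Exact permutation tests used all 20 ways to divide the animals. The fit of −ΔCt was tested on simulated data with independent genes, and the fit of the gaps was not. Tables were made with pandas 2.3.3 in Python 3.11.15 and figures with matplotlib 3.10.9.

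The genes named are the 7 members, 6 further type 2 genes, the house-keeping genes, cell type markers and the 5 genes most like Il33. The values of 1 of the further genes are not reported here. Members and lists were chosen with earlier results of these data known. All 92 transcripts of the plate were found in the RefSeq gene table of GRCm38.p6, 91 under the same symbol, and the promoters are RefSeq's. Alternatives changed the reference or the variance model, dropped genes with late Ct values, set missing wells to a Ct of 40, or omitted 1 animal at a time. The precision of each value is limited by 3 animals per group and, for late Ct values, by the negative-control wells.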

Additional observations from a re-analysis of the deposited data

How the results depend on the processing

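Il33 was higher in recipients under all 22 alternatives run and passed the threshold of the study under 19 of them. It did not pass without a reference (1.47), with B2m alone (0.71) or with Rplp0 alone (1.63), the last 2 chosen after seeing the data. With each animal left out its log2 fold change was 1.38 to 2.22. The number of the 7 genes past the threshold was 3 with Ppia, Tbp and Actb and 2 with the median Ct. It was 2 when each gene kept its own variance and 0 without a reference. Under these settings 30.5%, 26.8%, 18.3% and 7.32% of all genes passed. At an adjusted p of at most 0.05 by limma the number was 0, against 2.44% of all genes. This 0 holds for the 6-gene reference with all animals and genes and without a variance trend. Under 5 of 14 alternatives (single house-keeping genes not counted) Il33 had an adjusted p of at most 0.05 in limma, with 0.0413 for all 8 house-keeping genes, 0.0131 for Ppia, Tbp and Actb, 0.00251 for a variance trend, 0.0113 for genes under the lowest negative-control Ct and 0.0165 without control 3. With single house-keeping genes, all chosen after seeing the data, the number past the threshold was 5 with Actb, 3 with Ppia, 2 with Tfrc, 2 with Gusb and 0 with Rplp0, where 46.3%, 31.7%, 29.3%, 24.4% and 4.88% of all genes passed. With each animal left out that number was 1 to 2, and the 2 were Il33 and Il5 without recipient 4. In these fits 13.4% to 19.5% of all genes passed, with 19.5% without recipient 4. The sign turned for Il4 with the median Ct (−0.15) and without a reference (−0.03), and for Il13ra2 with Ppia, Tbp and Actb (0.017). A single reference shifts all genes alike, and their median log2 fold change was −0.94 with B2m, −0.26 with Gusb, 1.00 with Ppia, 1.44 with Actb, 1.14 with Hprt and 0.75 with Tfrc. With B2m alone the sign turned for Il4 (−0.79), Il5 (−0.40), Stat6 (−0.41) and Gata3 (−0.57), and with Gusb alone for Il4 (−0.11). With Ppia, Actb and Hprt alone it turned for Il13ra2 (0.15, 0.60 and 0.29) and for Il13 (0.77, 1.22 and 0.91), and for Il13 also with Tfrc alone (0.52). For Il13 it turned with all 8 house-keeping genes (0.18) and with Ppia, Tbp and Actb (0.64), and with each animal left out the value ranged from −0.96 to 0.99, above 0 without control 2, control 3 or recipient 4. With each animal left out the log2 fold change ranged from 0.026 to 0.60 for Il4, from 0.054 to 1.57 for Il5 and from 0.13 to 0.89 for Gata3. Relative to Il33 no sign turned. The change ranged over the animals left out from −1.69 to −1.22 for Il4, which did not pass without control 1 or recipient 5, and from −2.64 to −0.78 for Il13, which did not pass without control 2, control 3 or recipient 4, nor with its own variance (−1.87). It ranged from −1.78 to −0.20 for Il5, which passed without recipient 6. The range was −1.57 to −0.73 for Stat6 and −1.99 to −0.79 for Gata3, and both passed without control 3. For Il13ra2 it was −3.12 to −1.96 and passed throughout. The causes were not tested. The reference moved the median log2 fold change of all genes, from 0.11 to 0.41 with all 8 house-keeping genes, 0.86 with Ppia, Tbp and Actb, −0.30 with the median Ct and −0.18 without a reference. The 14 genes past the threshold, 10 higher and 4 lower, became 12 (12 higher), 25 (25 higher), 22 (6 higher and 16 lower) and 6 (3 higher and 3 lower). No paired analysis was possible because the groups share no replicate numbers. With only genes under the lowest negative-control Ct, 65 genes remained and Il5, Il13 and Il13ra2 had no value.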
